A study of Mus musculus with 6 samples.

Results

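Subunits of the respiratory chain that are encoded in the nucleus were examined in the mouse dentate gyrus (DG), the hippocampal region of the granule cells, 72 h after status epilepticus. They were taken by gene symbol from the annotation of an Illumina MouseWG-6 beadchip, which measures transcripts by hybridization to short probes, and grouped by complex. This gave 79 of the 19057 genes named on the array, with 35 in complex I, 4 in complex II, 8 in complex III, 16 in complex IV and 16 in complex V. Each gene was read from its tested probe with the highest mean signal. 72 of the 79 genes had a probe that passed the detection filter, out of 11222 genes that did so on the whole array. These were 34 genes of complex I, 3 of complex II, 7 of complex III, 12 of complex IV and 16 of complex V.

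The KA-SE group was 3 male C57/Black6J mice of 6-8 weeks in which repeated intraperitoneal injections of kainic acid, a glutamate receptor agonist, had brought on status epilepticus (SE). The other group was 3 male mice of the same strain and age injected with saline. The labels name no genetic modification, and total RNA came from the right DG, dissected from separate animals 72 h after the injections, with 1 array per mouse. As the tissue was bulk, fewer cells of a type and less RNA per cell cannot be told apart in any value below.

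The respiratory chain lies in the inner mitochondrial membrane. Complexes I and II pass electrons from NADH and succinate to ubiquinone, complex III passes them to cytochrome c and complex IV to oxygen, and the proton gradient built by complexes I, III and IV drives ATP synthesis by complex V. Neurons meet most of their energy demand this way, and the subunits come from both the nuclear and the mitochondrial genome.

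The 6 arrays detected between 21798 and 22771 of 45281 probes, and their median raw intensities lay between 47.8 and 63.0. Of 6 granule cell markers, Prox1 and C1ql2 had a tested probe, while Calb1, Tdo2, Dsp and Neurod1 were below the detection filter. Snap25, an abundant neuronal transcript, was below it as well, so a probe that did not pass does not show that a transcript was absent. Gfap, the intermediate filament of reactive astrocytes, had log2 signals of 12.98, 13.33 and 13.45 in KA-SE mice, against 11.38, 11.26 and 11.41 in saline mice (log2 change 1.90, limma adjusted p = 0.000511). Markers of the choroid plexus and ependyma differed between saline mice, with a summed linear signal between 528 and 31291, against 10373 to 13389 in KA-SE mice. The median deviation of the respiratory chain subunits from the saline mean was 0.02, -0.02 and -0.01 on the 3 saline arrays.

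None of the 72 subunits differed between KA-SE and saline mice at the threshold, but nearly all pointed the same way by a small amount. At a limma adjusted p under 0.05, 0 of 72 were lower in KA-SE mice, where 0.0188% of all 21226 tested probes were, and 0 were higher, where 0.212% were. At an unadjusted p under 0.05 the count was also 0 of 72, against 8.15% of all tested probes. The smallest adjusted p was 0.71, for Ndufa5. The log2 change, KA-SE minus saline, was below 0 for 63 of 72 subunits, against 53.2% of all tested probes, and its median was -0.12, against -0.01 over all tested probes. On 3 arrays against 3, no exact test of a single value over the 20 possible assignments can go below p = 0.1.

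The shift lay mainly on the array of KA-SE replicate 1. There the median deviation of the 72 subunits from the saline mean was -0.31 log2 units. It was -0.05 on the array of KA-SE replicate 2, and the subunits of KA-SE replicate 3 lay at the saline level. KA-SE replicate 1 had the lowest signal of all 6 arrays for 48 of 72 subunits, against 16.9% of all tested probes. More than 0.25 log2 units below the saline mean were 42 of 72 subunits on KA-SE replicate 1, against 13% of all tested probes. On KA-SE replicate 2 there were 5, against 12.7%, and on KA-SE replicate 3 there were 0, against 14.3%. Without KA-SE replicate 1 the median log2 change was -0.03, and 46 of 72 subunits were below 0, against 54.6% of all tested probes. 0 of 72 then passed the adjusted threshold, against 0.382%. Counted downwards at an unadjusted p under 0.05, the number was 0 as well, against 3.76%. Without KA-SE replicate 3 the median was -0.21.

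**Figure D1:**
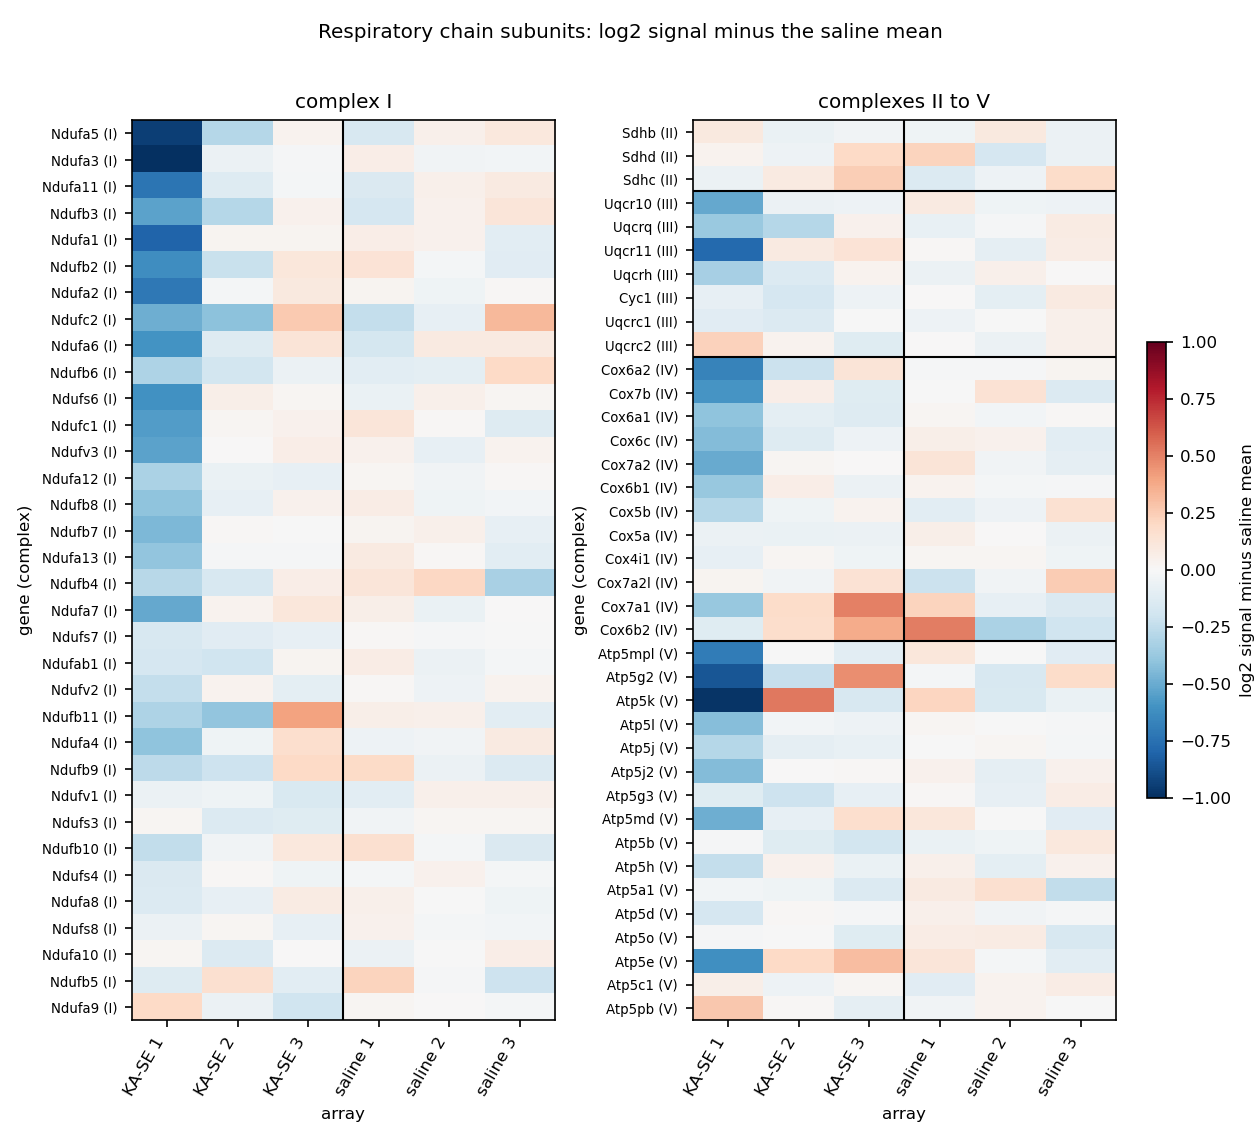
Deviation of the log2 signal from the saline mean (colour scale in log2 units) for the 72 subunits in rows, ordered by log2 change within each complex, and the 6 arrays in columns with KA-SE on the left. The column of KA-SE replicate 1 is blue for most rows, with a median of -0.31, while KA-SE replicates 2 and 3 resemble the saline arrays.

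Before any normalization the same array stood apart. The median raw intensity of the 72 subunits, divided by that of all tested probes on the same array, was 16.3 on KA-SE replicate 1, 20.2 on KA-SE replicate 2 and 19.9 on KA-SE replicate 3, against 21.2, 19.8 and 19.4 on the 3 saline arrays. Over the brightest 5307 of all tested probes, the median deviation was 0.03 on KA-SE replicate 1, -0.01 on KA-SE replicate 2 and -0.02 on KA-SE replicate 3. KA-SE replicate 1 was the lowest array for 20.4% of these bright probes. More than 0.25 log2 units below the saline mean were 687 of them on KA-SE replicate 1, 363 on KA-SE replicate 2 and 471 on KA-SE replicate 3. The part of brightness in the subunits' values was not tested.

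All 34 complex I subunits tested had a log2 change below 0, the lowest at -0.40 and the highest at -0.02, around a median of -0.13. Complex I, NADH dehydrogenase, consists of a catalytic core of subunits for electron transfer and proton pumping, surrounded by accessory subunits needed for assembly and stability. Its median deviation was -0.36 on KA-SE replicate 1, -0.06 on KA-SE replicate 2 and 0.03 on KA-SE replicate 3. Without KA-SE replicate 1 the median log2 change was -0.03, with 22 of 34 below 0.

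Ndufa5, an accessory subunit of the peripheral arm, had log2 signals of 10.66, 11.31 and 11.63 in KA-SE mice, against 11.44, 11.65 and 11.71 in saline mice. The groups overlapped, KA-SE replicate 1 was lowest, and the log2 change was -0.40 with a standard error from the fit of 0.21 (limma adjusted p = 0.71). Omitting KA-SE replicate 1 left -0.13. Ndufa3, an accessory subunit of the membrane arm, had 11.51, 12.47 and 12.52 in KA-SE mice, against 12.59, 12.49 and 12.50 in saline mice. KA-SE replicate 1 lay 2.02-fold below the saline mean, while the remaining arrays lay close together (log2 change -0.36, adjusted p = 0.779, and -0.04 with that array omitted). Ndufa11, also of the membrane arm, had 10.85, 11.45 and 11.56 in KA-SE mice, against 11.44, 11.63 and 11.68 in saline mice. Here too the low value of KA-SE replicate 1 made most of the difference, and the log2 change without it was -0.07, against -0.29 with it.

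The same array was low for further accessory subunits, which were singled out after their values were seen. Ndufa1, a small membrane subunit required for assembly, had log2 signals of 11.49, 12.31 and 12.31 in KA-SE mice, against 12.35, 12.33 and 12.19 in saline mice. Ndufa2, of the peripheral arm, had 11.34, 12.03 and 12.16 in KA-SE mice, against 12.08, 12.02 and 12.07 in saline mice. Ndufb2 had 6.70, 7.10 and 7.43 in KA-SE mice, against 7.46, 7.30 and 7.21 in saline mice. In each of these 3 genes KA-SE replicate 1 was the lowest array and KA-SE replicate 3 lay within or above the saline range. Ndufa13, also known as GRIM-19 for its role in interferon and retinoic acid induced cell death, showed 13.22, 13.60 and 13.60 in KA-SE mice, against 13.71, 13.63 and 13.51 in saline mice. Ndufa4, named as a complex I subunit but since assigned to complex IV, was kept in the complex I counts and medians by its symbol. It showed 12.73, 13.09 and 13.30 in KA-SE mice, against 13.08, 13.09 and 13.22 in saline mice.

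Core subunits of complex I departed less on that array. The furthest was Ndufv2, singled out after its values were seen, with a deviation of -0.24 and KA-SE replicate 1 as its lowest array. It had log2 signals of 11.73, 12.01 and 11.87 in KA-SE mice, against 11.98, 11.92 and 12.01 in saline mice. Ndufv1, which binds NADH and the flavin, had log2 signals of 12.34, 12.35 and 12.24 in KA-SE mice, against 12.29, 12.45 and 12.45 in saline mice (log2 change -0.08, adjusted p = 0.945). Ndufs3, of the part that leads to ubiquinone, had 11.58, 11.43 and 11.44 in KA-SE mice, against 11.53, 11.59 and 11.58 in saline mice. Ndufs7, which holds the last iron-sulphur cluster before ubiquinone and was singled out after its values were seen, had 12.14, 12.18 and 12.22 in KA-SE mice, against 12.31, 12.29 and 12.30 in saline mice. Its 3 KA-SE arrays lay below all saline arrays, by a small margin, and its log2 change was -0.12 (adjusted p = 0.892). At the other end of the complex stood Ndufa9 and Ndufb5. Ndufa9, an accessory subunit of the short-chain dehydrogenase family, had 12.10, 11.85 and 11.71 in KA-SE mice, against 11.92, 11.91 and 11.89 in saline mice, with KA-SE replicate 1 the highest array and a log2 change of -0.02. Ndufb5, of the membrane arm, had 8.45, 8.74 and 8.47 in KA-SE mice, against 8.80, 8.57 and 8.37 in saline mice, and a log2 change of -0.03.

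Complex II, succinate dehydrogenase, also works in the tricarboxylic acid cycle and is encoded wholly by the nucleus. Read from their brightest probes, its 3 tested subunits were the only complete exception to the direction. Sdhb, at 0.0011, Sdhc and Sdhd had log2 changes above 0, with a median of 0.06. With arrays scaled to a common median instead of quantile normalized, all 3 were below 0, at -0.13 for Sdhb, -0.04 for Sdhc and -0.01 for Sdhd, where the median of all tested probes was -0.10. The iron-sulphur subunit Sdhb had log2 signals of 10.64, 10.47 and 10.50 in KA-SE mice, against 10.50, 10.63 and 10.48 in saline mice. A second Sdhb probe, with a mean log2 signal of 9.63, had a log2 change of -0.13. A dimmer one, at 4.95, had 0.02, so the sign for Sdhb depended on the probe. The membrane anchors were Sdhc, with 10.67, 10.82 and 10.97 in KA-SE mice, against 10.60, 10.68 and 10.92 in saline mice, and Sdhd, with 6.44, 6.36 and 6.61 in KA-SE mice, against 6.63, 6.24 and 6.35 in saline mice. The groups overlapped for each of them, and KA-SE replicate 1 was the lowest array for none.

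In complex III, 6 of 7 subunits had a log2 change below 0, with a median of -0.14. The median deviation was -0.33 on KA-SE replicate 1, -0.13 on KA-SE replicate 2 and -0.01 on KA-SE replicate 3, and the median log2 change with KA-SE replicate 1 omitted was -0.06. The small supernumerary subunits departed most. Uqcr10 had log2 signals of 12.82, 13.27 and 13.28 in KA-SE mice, against 13.42, 13.29 and 13.28 in saline mice. Uqcrq had 7.09, 7.18 and 7.51 in KA-SE mice, against 7.39, 7.45 and 7.55 in saline mice. Uqcr11 had 12.16, 13.03 and 13.08 in KA-SE mice, against 12.96, 12.86 and 13.02 in saline mice, so KA-SE replicate 1 lay 1.72-fold below the saline mean and KA-SE replicates 2 and 3 above all saline arrays. Its log2 change of -0.19 became 0.11 without KA-SE replicate 1.

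The larger complex III subunits moved little. Cyc1, cytochrome c1, had log2 signals of 11.30, 11.21 and 11.33 in KA-SE mice, against 11.39, 11.29 and 11.48 in saline mice (log2 change -0.10, adjusted p = 0.928). Of the core proteins, which form the matrix-facing part, Uqcrc1 had 11.28, 11.25 and 11.38 in KA-SE mice, against 11.34, 11.39 and 11.44 in saline mice. Uqcrc2 was the only complex III subunit with a log2 change above 0, at 0.05, and was highest on KA-SE replicate 1, with 12.84, 12.64 and 12.48 in KA-SE mice, against 12.61, 12.55 and 12.65 in saline mice. It was below 0 with arrays scaled to a common median, at -0.08.

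In complex IV, cytochrome c oxidase, 9 of 12 subunits had a log2 change below 0 and the median was -0.11. The catalytic subunits of this complex are encoded by mitochondrial DNA, and all nuclear ones are accessory. The median deviation was -0.38 on KA-SE replicate 1, -0.01 on KA-SE replicate 2 and -0.02 on KA-SE replicate 3. The median log2 change without KA-SE replicate 1 was -0.0071. Several subunits come as isoforms for different tissues, and the array carried probes for both the general and the restricted forms.

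Of the Cox6a pair, the general form Cox6a1 had log2 signals of 13.47, 13.78 and 13.75 in KA-SE mice, against 13.89, 13.84 and 13.88 in saline mice, without overlap on its brightest probe. Its log2 change was -0.21, with a standard error of 0.12 (adjusted p = 0.747). Omitting KA-SE replicate 1 left -0.11. The muscle and heart form Cox6a2 had 7.89, 8.34 and 8.69 in KA-SE mice, against 8.54, 8.54 and 8.59 in saline mice. Of the Cox6b pair, which faces the cytochrome c side, Cox6b1 had 12.88, 13.33 and 13.20 in KA-SE mice, against 13.30, 13.24 and 13.25 in saline mice. The testis form Cox6b2 had 5.50, 5.80 and 5.99 in KA-SE mice, against 6.13, 5.31 and 5.43 in saline mice, and the highest log2 change of the complex, 0.14 with a standard error of 0.209. Its sign rested on the spread of the saline arrays, and it was -0.02 without saline replicate 2.

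In the Cox7 family, Cox7a2 had log2 signals of 7.48, 8.00 and 7.99 in KA-SE mice, against 8.12, 7.95 and 7.90 in saline mice, and the muscle form Cox7a1 had 7.20, 7.76 and 8.09 in KA-SE mice, against 7.81, 7.51 and 7.44 in saline mice. Both were lowest on KA-SE replicate 1. Cox7a1 changed sign with the array left out, with a log2 change of 0.10 over all arrays, 0.34 when KA-SE replicate 1 was omitted and -0.10 when KA-SE replicate 3 was, and it was -0.01 with arrays scaled to a common median. Cox7a2l, which helps join complexes III and IV in supercomplexes, had 11.48, 11.42 and 11.60 in KA-SE mice, against 11.24, 11.42 and 11.71 in saline mice. Its log2 change of 0.04 was -0.07 with arrays scaled to a common median. Cox7b had 5.64, 6.30 and 6.11 in KA-SE mice, against 6.23, 6.37 and 6.09 in saline mice, and a log2 change of -0.21.

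Cox4i1 and Cox5a, which pack against the catalytic core of complex IV, showed small differences. Cox4i1 had log2 signals of 13.35, 13.45 and 13.40 in KA-SE mice, against 13.46, 13.46 and 13.39 in saline mice (log2 change -0.04, adjusted p = 0.981). Cox5a had 12.74, 12.72 and 12.73 in KA-SE mice, against 12.85, 12.80 and 12.73 in saline mice.

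Complex V, the ATP synthase, couples a membrane-embedded proton rotor to a catalytic head. Of its 16 subunits 14 had a log2 change below 0, with a median of -0.12. The median deviation was -0.26 on KA-SE replicate 1, -0.02 on KA-SE replicate 2 and -0.07 on KA-SE replicate 3. The median log2 change was -0.03 with KA-SE replicate 1 omitted. The lowest deviations on KA-SE replicate 1 were those of Atp5k, Atp5g2 and Atp5mpl. Atp5mpl, a small membrane proteolipid, had log2 signals of 12.35, 13.04 and 12.94 in KA-SE mice, against 13.16, 13.05 and 12.93 in saline mice (log2 change -0.27, adjusted p = 0.787, and -0.05 with KA-SE replicate 1 omitted). Atp5k, subunit e, which takes part in dimer formation, had 5.00, 6.50 and 5.82 in KA-SE mice, against 6.20, 5.83 and 5.92 in saline mice. KA-SE replicate 1 was its lowest and KA-SE replicate 2 its highest array. The Atp5k probe was detected on all 6 arrays but was dim. Its raw intensity on KA-SE replicate 1, 56.8, was near that array's median over all probes, 51.1. Atp5l, subunit g, had 13.13, 13.53 and 13.50 in KA-SE mice, against 13.57, 13.54 and 13.54 in saline mice. Atp5j, coupling factor 6, had 12.83, 13.02 and 13.04 in KA-SE mice, against 13.11, 13.13 and 13.09 in saline mice. Both, singled out after their values were seen, had all KA-SE arrays below all saline arrays on their brightest probes.

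Subunit c of the rotor ring is encoded by several genes with the same mature protein. Atp5g2 had log2 signals of 8.27, 8.90 and 9.59 in KA-SE mice, against 9.11, 8.96 and 9.31 in saline mice, a KA-SE range that contained the saline one. Atp5g3 had 14.12, 14.04 and 14.16 in KA-SE mice, against 14.25, 14.16 and 14.32 in saline mice, with a log2 change of -0.14 and the same value without KA-SE replicate 1. In the catalytic head, Atp5b, the beta subunit, had 14.76, 14.65 and 14.59 in KA-SE mice, against 14.71, 14.73 and 14.88 in saline mice (log2 change -0.10, adjusted p = 0.928). The alpha and gamma subunits overlapped between groups likewise. Atp5a1 had 9.02, 9.01 and 8.91 in KA-SE mice, against 9.14, 9.21 and 8.80 in saline mice, and Atp5c1 had 12.10, 11.99 and 12.06 in KA-SE mice, against 11.92, 12.07 and 12.11 in saline mice. Atp5e, the epsilon subunit, singled out after its values were seen, had 6.23, 7.04 and 7.15 in KA-SE mice, against 6.96, 6.82 and 6.74 in saline mice, with KA-SE replicate 1 below and KA-SE replicates 2 and 3 above all saline arrays. Atp5pb, subunit b of the stator, was highest on KA-SE replicate 1, with 11.30, 11.04 and 10.95 in KA-SE mice, against 10.99, 11.07 and 11.03 in saline mice. The log2 changes of Atp5c1, 0.01, and Atp5pb, 0.06, were -0.11 and -0.05 with arrays scaled to a common median.

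**Figure D2:**
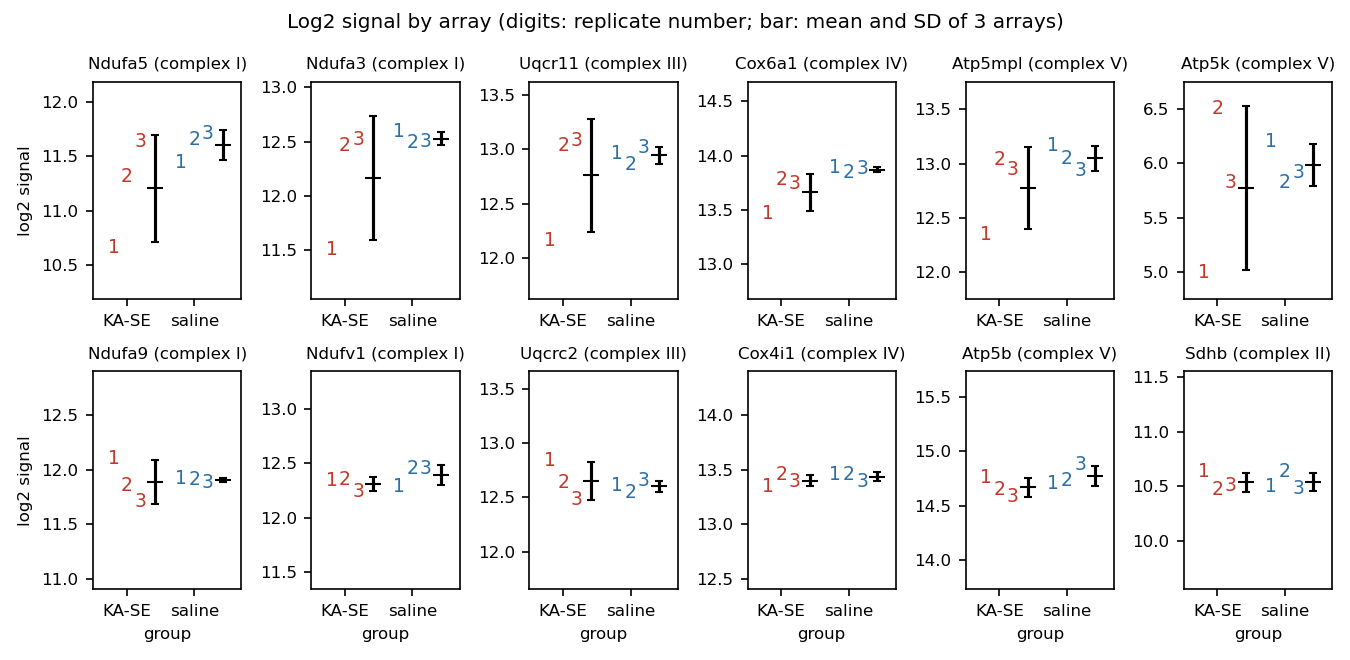
Log2 signal of 12 subunits by group, KA-SE left of saline, with digits for the replicate number and a bar for the mean and SD of 3 arrays. In the upper row replicate 1 of KA-SE lies below all saline arrays, by up to a log2 unit in Ndufa3 and Atp5k, and in the lower row it lies within or close to the range of the remaining arrays or, as in Ndufa9 and Uqcrc2, above them.

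Over the whole set, all KA-SE arrays lay below all saline arrays for 6 of 72 subunits, against 5.75% of all tested probes. These were Ndufa12, Ndufs7, Uqcr10, Cox6a1, Atp5l and Atp5j, of which Ndufa12, an accessory subunit of complex I singled out after its values were seen, had log2 signals of 11.15, 11.41 and 11.39 in KA-SE mice, against 11.49, 11.44 and 11.48 in saline mice. All KA-SE arrays lay above all saline arrays for 0 of 72, against 7.33% of all tested probes. Of the 22 subunits with several tested probes, 19 had the same sign of the log2 change on each of them and 3 did not. For Uqcr10, Cox6a1, Atp5l and Atp5j the groups overlapped on a second tested probe. On that of Cox6a1, KA-SE replicate 3 had 13.16, against 13.03, 13.14 and 13.02 in saline mice. On the brightest Uqcr10 probe the margin was small, with a highest KA-SE signal of 13.281 and a lowest saline signal of 13.285.

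**Figure D3:**
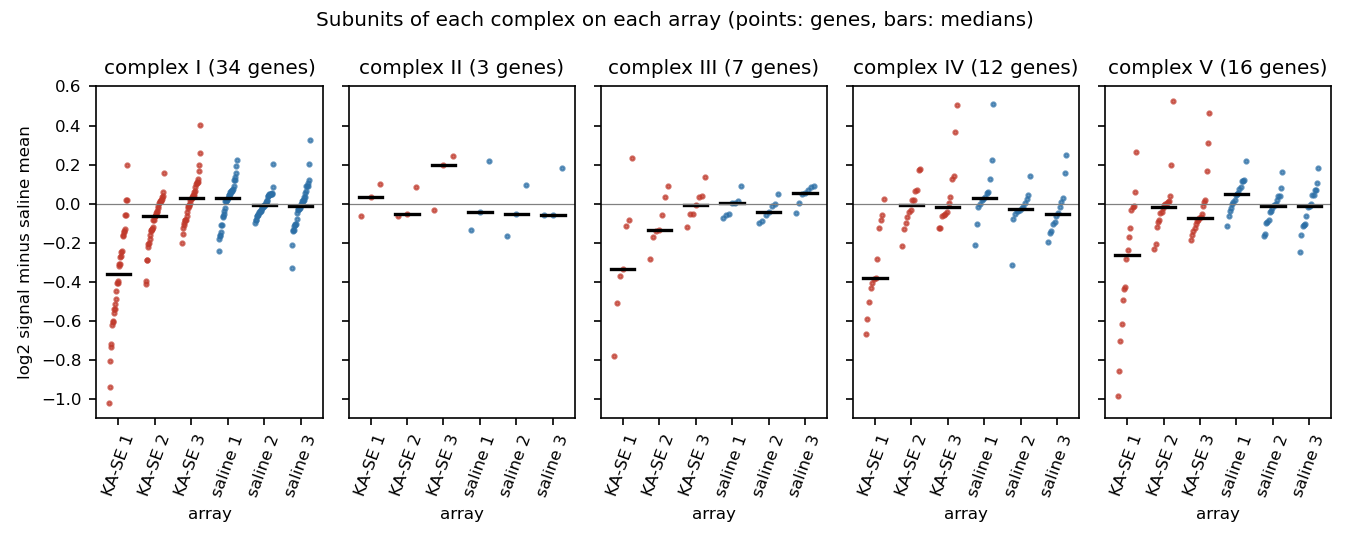
Deviation of each subunit from its saline mean in log2 units (vertical axis), 1 panel per complex, with a point per gene and a bar at the median for each array, KA-SE left of saline. The medians on KA-SE replicate 1 were -0.36 in complex I, 0.04 in complex II, -0.33 in complex III, -0.38 in complex IV and -0.26 in complex V.

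Within the subunits, the deviation on KA-SE replicate 1 was uneven between core and accessory members, a division made after the values were seen. As core were counted Ndufv1, Ndufv2, Ndufs3, Ndufs7 and Ndufs8 of complex I, the complex II subunits, Cyc1, and the subunits of the head and rotor of complex V. The 56 accessory subunits had a median deviation of -0.40 on KA-SE replicate 1, -0.04 on KA-SE replicate 2 and 0.02 on KA-SE replicate 3. The 16 core subunits had -0.06, -0.05 and -0.07 on the same arrays in that order. Uqcrc1 and Uqcrc2, although called core proteins of complex III, were counted as accessory. KA-SE replicate 1 was the lowest array for 43 of 56 accessory and 5 of 16 core subunits. Within complex I alone the median on KA-SE replicate 1 was -0.40 for 29 accessory and -0.06 for 5 core subunits. As the values chose this division, it was not tested.

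The promoters of the subunits were examined for short motifs of factors known to control respiratory genes, NRF-1, GABP (also called NRF-2) and YY1. Windows of 250 bases before to 50 bases after the start were taken from RefSeq (mouse build GRCm38.p6), where 65 of the 79 subunits matched, with 70 windows. The letters searched on both strands were GCGCATGCG for NRF-1, CCGGAAG for GABP and AAGATGGCG for YY1. The NRF-1 letters occurred in 11.4% of the subunits' windows, against 3.32% for genes with a tested probe and 1.75% of all windows. GABP letters occurred in 22.9%, against 15.6% for genes with a tested probe and 8.86% of all windows, and YY1 letters in 10%, against 2.74% and 1.40%. The windows of cytosolic ribosomal protein genes held NRF-1 letters in 4%, GABP letters in 34.7% and YY1 letters in 8%. Any of the 3 motifs occurred in 37.1% of the subunits' windows, against 46.7% for these ribosomal genes, 20.2% for genes with a tested probe and 11.4% of all windows. A match describes the letters in the window and does not show binding.

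Stretches of 100 bases upstream of 7 subunits are shown because they carry such a match. They were chosen after their values were seen, and for each of NRF-1 and GABP they include genes with a low and with a near-saline signal on KA-SE replicate 1. Capitals mark the bases matched on either strand, and where the NRF-1 letters match on both strands the matches lie 1 base apart. Ndufa11 (chr17:56717662-56717761, plus strand), Atp5g2 (chr15:102671048-102671147, minus strand) and Atp5k (chr5:108434400-108434499, minus strand) hold the NRF-1 letters, and Ndufa8 (chr2:36049339-36049438, minus strand) their reverse complement. Cox6b1 (chr7:30626115-30626214), Ndufs3 (chr2:90904722-90904821) and Sdhd (chr9:50603850-50603949), all on the minus strand, hold the GABP letters or their reverse complement.
Ndufa11: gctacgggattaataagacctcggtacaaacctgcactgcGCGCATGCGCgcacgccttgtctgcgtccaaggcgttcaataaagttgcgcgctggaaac
Ndufa8: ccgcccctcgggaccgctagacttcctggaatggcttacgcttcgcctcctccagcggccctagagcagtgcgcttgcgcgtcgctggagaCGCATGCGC
Atp5g2: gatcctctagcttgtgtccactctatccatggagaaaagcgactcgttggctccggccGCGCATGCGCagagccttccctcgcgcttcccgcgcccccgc
Atp5k: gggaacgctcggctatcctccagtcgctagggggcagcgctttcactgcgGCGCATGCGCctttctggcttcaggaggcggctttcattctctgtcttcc
Cox6b1: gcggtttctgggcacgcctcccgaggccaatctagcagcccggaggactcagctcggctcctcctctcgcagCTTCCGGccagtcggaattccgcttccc
Ndufs3: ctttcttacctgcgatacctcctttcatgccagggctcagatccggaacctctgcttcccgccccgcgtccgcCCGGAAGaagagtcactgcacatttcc
Sdhd: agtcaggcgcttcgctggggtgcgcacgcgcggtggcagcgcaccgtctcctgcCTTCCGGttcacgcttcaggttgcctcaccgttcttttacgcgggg

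The deviations on KA-SE replicate 1 for these genes were -0.73 for Ndufa11, -0.14 for Ndufa8, -0.85 for Atp5g2, -0.98 for Atp5k, -0.38 for Cox6b1, 0.02 for Ndufs3 and 0.04 for Sdhd. Over all tested subunits with a promoter, the median deviation on that array was -0.58 for the 8 with NRF-1 letters and -0.31 for the 53 without. For GABP letters it was -0.36 for 16 subunits with them and -0.31 for 45 without, and for YY1 letters -0.28 for 7 and -0.33 for 54. These values are descriptions over genes that share the array, with no test. Atp5k, Atp5l, Cox6a1 and Uqcr11 hold both the NRF-1 and the GABP letters and count among the subunits with each. For Atp5k the GABP match lies after the start, outside the stretch shown. The value for Atp5k rests on a raw signal near the median of all probes.

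7 subunits had no tested probe. These were Ndufs1, the iron-sulphur subunit of the NADH arm, Sdha, the flavoprotein of complex II, Uqcrfs1, the Rieske protein, and the tissue-restricted forms Cox4i2, Cox7b2, Cox8b and Cox8c of complex IV. Their probes were detected on at most 3 of 6 arrays, and no value is given for them.

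Other gene lists of mitochondrial respiration had medians nearer to or above the saline mean on KA-SE replicate 1. The 7 mitochondrially encoded subunits tested, of 13, had a median log2 change of 0.06, with deviations of 0.15, 0.01 and 0.14 on KA-SE replicates 1, 2 and 3, and 0 passed the adjusted threshold. Of these, ND4 of complex I had log2 signals of 14.67, 14.52 and 14.63 in KA-SE mice, against 14.50, 14.54 and 14.38 in saline mice, and COX2 of complex IV had 12.02, 11.85 and 12.02 in KA-SE mice, against 11.97, 12.00 and 11.62 in saline mice. Saline replicate 3 was the lowest array for 5 of the 7.

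The assembly factors, which build the complexes but are not part of them, had a median log2 change of -0.06 over 39 tested genes, with deviations of -0.04, -0.03 and -0.02 on KA-SE replicates 1, 2 and 3. KA-SE replicate 1 was lowest for 11 of the 39. Among the 13 carriers and exchangers the median was 0.03, with 0.11, -0.05 and -0.07 on KA-SE replicates 1, 2 and 3. Among the 12 enzymes of the tricarboxylic acid cycle it was -0.03, with 0.07, -0.06 and -0.06 on these arrays. KA-SE replicate 1 was the lowest array for 0 of the 12 enzymes. Without KA-SE replicate 1 the median of the enzymes was -0.08, with 10 of 12 below 0. That of the carriers and exchangers was then -0.06, with 9 of 13 below 0. The 9 regulators of mitochondrial gene expression tested, such as Ppargc1a, Nrf1 and Tfam, had a median of -0.04. In each of these lists 0 genes passed the adjusted threshold in either direction.

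Ribosomal protein genes were low on that array too. The 55 cytosolic ribosomal protein genes had median deviations of -0.32 on KA-SE replicate 1, 0.06 on KA-SE replicate 2 and 0.12 on KA-SE replicate 3, and KA-SE replicate 1 was the lowest array for 41. Rpl38, of the large subunit and chosen after its values were seen, had log2 signals of 13.40, 14.33 and 14.25 in KA-SE mice, against 14.32, 14.24 and 14.33 in saline mice. The 73 mitochondrial ribosomal protein genes lay between, with a median deviation of -0.10 on KA-SE replicate 1, the lowest array for 33. Whether a property of that array or of that mouse moved these genes together was not tested.

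Cell type markers did not all move one way. The 2 granule cell markers tested, Prox1 and C1ql2, differed in sign, with log2 changes of -0.23 for 1 and 0.29 for the other. Their summed linear signal was 4576 to 5882 in KA-SE mice, against 4234 to 4692 in saline mice. The 6 neuronal markers tested had a median deviation of 0.00 on KA-SE replicate 1, -0.10 on KA-SE replicate 2 and 0.01 on KA-SE replicate 3, and their summed linear signal was 39226 to 44847 in KA-SE mice, against 41439 to 42919 in saline mice. The highest sum was that of KA-SE replicate 1. All 7 astrocyte markers and all 6 microglia and macrophage markers tested had a log2 change above 0, with medians of 0.36 and 0.61, and 1 of them, Gfap, passed the adjusted threshold. The summed signal of astrocyte markers was 32411 to 34877 in KA-SE mice, against 21132 to 22666 in saline mice. That of microglia and macrophage markers was 3250 to 5038 in KA-SE mice, lowest in replicate 1, against 2339 to 2506 in saline mice. The 6 markers of CA1 and CA3 pyramidal cells, the neurons of the neighbouring hippocampal fields, had median deviations of -0.16 on KA-SE replicate 1, 0.06 on KA-SE replicate 2 and 0.03 on KA-SE replicate 3. Their summed signal was 4806 to 5164 in KA-SE mice, lowest in replicate 1, against 5308 to 5789 in saline mice, without overlap. Taken singly, 4 of the 6 had a log2 change above 0 and 2 below 0, with a median of 0.07. The 5 choroid plexus and ependyma markers had -0.31, 0.31 and -0.16 on KA-SE replicates 1, 2 and 3, inside the spread of the saline arrays from -1.33 to 1.64. Oligodendrocyte, endothelial and blood markers had medians above the saline mean on KA-SE replicate 1, at 0.31, 0.23 and 0.12. The part of cell composition in the values of the respiratory chain subunits was not tested.

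**Figure D4:**
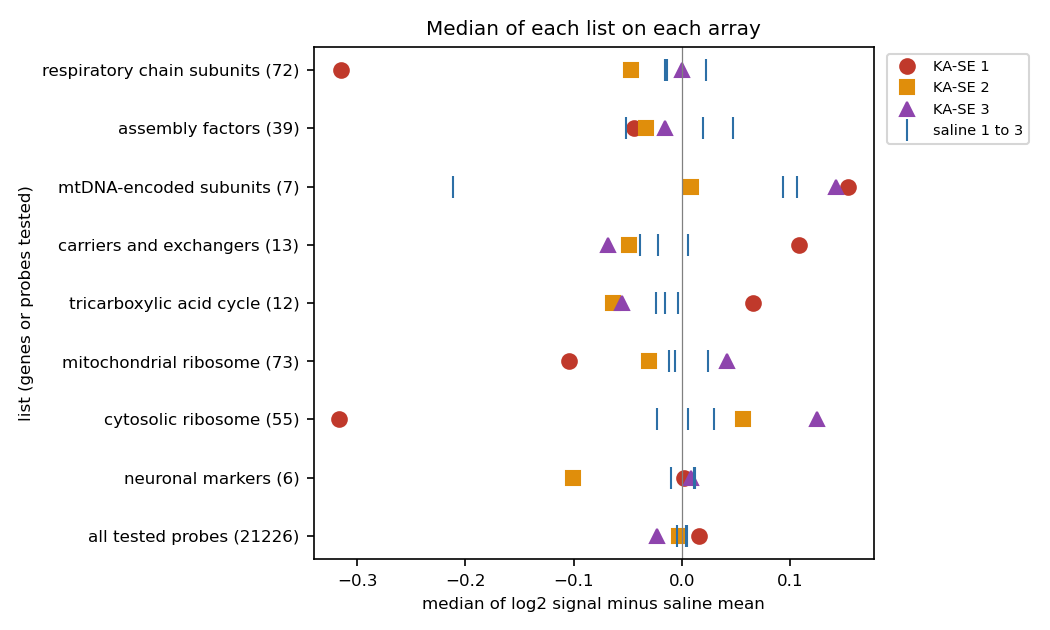
Median deviation from the saline mean in log2 units (horizontal axis) for 9 gene lists, with a symbol for each KA-SE array and ticks for the saline arrays. KA-SE replicate 1 lies at -0.31 for the respiratory chain subunits and at -0.32 for the cytosolic ribosome, against 0.15 for the mitochondrially encoded subunits and 0.02 for all tested probes.

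**Figure D5:**
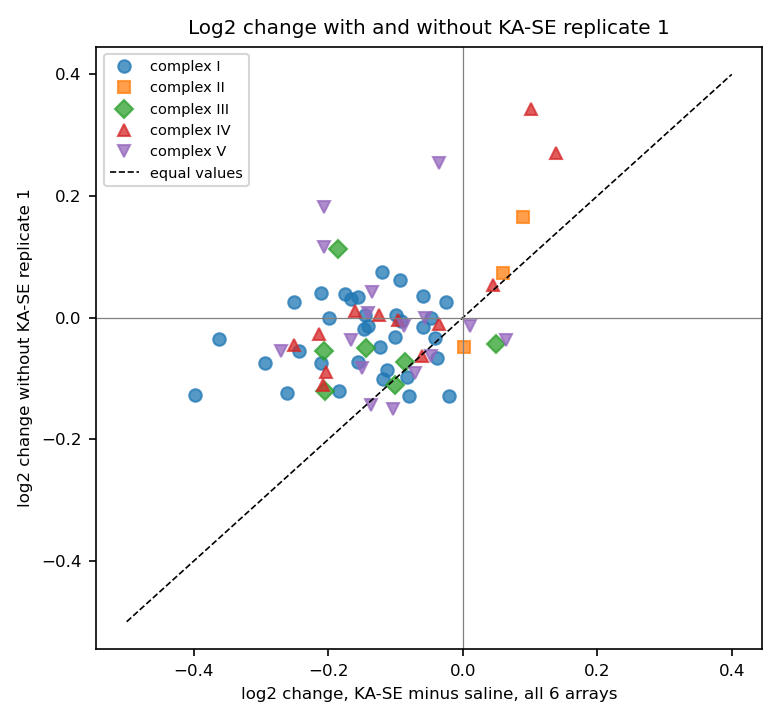
Log2 change of each of the 72 subunits, KA-SE minus saline, over all 6 arrays (horizontal axis) and without KA-SE replicate 1 (vertical axis), with a symbol per complex and a dashed line at equal values. Most points left of 0 lie above the line, and the median was -0.12 over all arrays and -0.03 without KA-SE replicate 1.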

How the data were processed

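Arrays were assigned to groups by sample titles, and 2 raw columns whose names carry an extra digit by the replicate number they end in. The best match of every raw column was the processed column of its own sample. The authors read the arrays in GenomeStudio and deposited a linear intensity per probe and array, without background subtraction. They also deposited a detection p-value for each. A further deposited table holds processed values, a score of unknown log base and offset with a median of 18.1, used only as an alternative. Tool versions upstream of the files were not given in the sources used.

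Intensities were corrected by normexp with negative controls inferred from the detection p-values (offset 16), quantile normalized and put on the log2 scale with limma 3.58.1 in R 4.3.3. The test covered 21226 of 45281 probes, those detected (p under 0.05) on every array of KA-SE, of saline or of both. A linear model with empirical Bayes moderation in limma gave two-sided p-values for KA-SE minus saline, adjusted by Benjamini-Hochberg across the 21226 probes, with a threshold of 0.05. The procedure was tested on simulated data.

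Probes were named from the platform annotation, in which 34885 had 1 gene, 18 several and 10378 none. The members and lists were chosen with earlier results of these data known. Named were all of complex II, the 3 lowest and 2 highest log2 changes of each other complex, catalytic subunits and isoform sets, and further genes where stated. Alternatives covered background correction, offset, normalization, source of the values, the filter, variance prior, array weights, a replicate block, the choice among probes, updated symbols, a permutation p-value and omission of each array. Slide and scan were not used here. The number of arrays limits the precision.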

Additional observations from a re-analysis of the deposited data

How the results depend on the processing

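No subunit passed the adjusted threshold under any alternative, including a permutation p-value under 0.01, which 582 of all tested probes reached. The median log2 change of the 72 subunits kept its sign, from -0.21 without KA-SE replicate 3 to -0.03 without KA-SE replicate 1. It was -0.22 with arrays scaled to a common median, where all tested probes had -0.10, and -0.06 on the scale of the deposited processed values. Subunits below 0 numbered between 46 and 71 where each gene was counted once. Of 616 comparisons for 44 named genes, 41 in 21 genes changed sign, and the cause was not tested. With arrays scaled to a common median, these were Atp5c1 (-0.11), Atp5pb (-0.049), Cox7a1 (-0.010), Cox7a2l (-0.070), Sdhb (-0.13), Sdhc (-0.037), Sdhd (-0.014) and Uqcrc2 (-0.082). With array weights they were Atp5c1 (-0.012), Atp5e (0.0071), Atp5k (0.015), Ndufb5 (0.026) and Sdhb (-0.038). With each array left out in turn, the log2 change ranged from -0.19 to 0.0094 for Atp5a1, -0.044 to 0.048 for Atp5c1, -0.21 to 0.25 for Atp5e, -0.54 to 0.12 for Atp5g2, -0.57 to 0.18 for Atp5k, -0.037 to 0.14 for Atp5pb and -0.22 to 0.0038 for Cox6b1. It ranged from -0.018 to 0.39 for Cox6b2, -0.10 to 0.34 for Cox7a1, -0.25 to 0.012 for Cox7a2, -0.062 to 0.17 for Cox7a2l, -0.39 to 0.025 for Ndufa1, -0.37 to 0.040 for Ndufa2 and -0.22 to 0.062 for Ndufa4. The last ranges were -0.13 to 0.070 for Ndufa9, -0.13 to 0.086 for Ndufb5, -0.048 to 0.050 for Sdhb, -0.022 to 0.17 for Sdhd, -0.35 to 0.11 for Uqcr11 and -0.043 to 0.13 for Uqcrc2. Replicate numbers were shared by the groups, and deviations of same-numbered arrays correlated by 0.02, 0.18 and 0.24. KA-SE replicates 2 and 3 correlated best with the saline array of their own number, and KA-SE replicate 1 with saline replicate 2. With the replicate number as a block the median stayed at -0.12 and 0 subunits passed. Genes below the detection filter, 7 of 79, have no value, and 3 arrays a group limit what could be detected.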

Other observations

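Gene length was looked up for the subunits after their values had been seen. The 72 tested subunits have a median gene span of 7228 bases in RefSeq (GRCm38.p6), against 23726.5 bases for 11200 named genes with a tested probe. Across the 72 genes, which share their arrays and are not independent replicates, the deviation on KA-SE replicate 1 correlated with the log2 of the span by a Pearson correlation of 0.46 and a Spearman correlation of 0.42. The Spearman correlation was -0.03 for KA-SE replicate 2 and -0.21 for KA-SE replicate 3. Over the 11200 genes it was 0.18 for KA-SE replicate 1. The median deviation on KA-SE replicate 1 was -0.04 over the 2800 named genes with the shortest spans and 0.06 over the 2800 with the longest. On KA-SE replicate 3 the order was the opposite, with 0.03 for the shortest and -0.05 for the longest. On KA-SE replicate 2 these medians were 0.012 and 0.004.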
